A study of Mus musculus with 120 samples.

Results

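The 9 genes Macrod2, Fhit, Wwox, Immp2l, Lrp1b, Csmd1, Csmd3, Auts2 and Etl4 span 0.90 to 2.06 Mb each, and several of them lie at chromosomal fragile sites. They were chosen by their length and from earlier results of the same lists of methylation windows, so their counts of windows are a description and carry no test. Of 8961 windows of 1 kb that the authors called as differing between App-NLGF and wild-type mice, 40 overlapped one of these genes or lay within 10 kb of its body. The 9 genes are 9 of 49554 genes in the annotation used. Whole-genome bisulfite sequencing measured the share of methylated cytosines in hippocampus and blood, in App-NLGF mice and in wild-type mice, at postnatal weeks 3, 8 and 24. App-NLGF is a knock-in line in which the mouse's own App gene encodes a humanised amyloid-beta with the Swedish, Iberian and Arctic mutations. The labels give 12 groups of 10 libraries, 5 of each sex: App-NLGF and wild type at each age in each tissue. The authors compared the genotypes separately for every tissue and age, with sex in the model, which gives 6 lists of called windows. Each window comes with a difference of methylation in percentage points and with p, raw and adjusted. The name of the comparison is the basis for reading a difference as App-NLGF minus wild type, and all directions below rest on it. Single libraries and coverage were not analysed here, so depth is unknown and values carry no spread between animals. In bulk tissue, a change of methylation within cells and a change in the mix of cell types cannot be told apart.

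Very long genes take many hours to transcribe, and replication and transcription then meet in the same region within a cell cycle. Common fragile sites are regions, many of them inside such genes, that form gaps and breaks on chromosomes when DNA replication is slowed, and that are often deleted in tumours. Many genes of this size are expressed in neurons, where they encode adhesion molecules, receptors and regulators of development. In their bodies, CG dinucleotides are mostly methylated, whereas CG-rich starts of genes are mostly free of methylation.

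The 9 genes together held close to the number of windows that their length would give. With 10 kb on each side they cover 0.481% of the 2612 Mb between the first and last annotated position of the autosomes and X, and they held 40 windows (95% exact Poisson interval 28.6 to 54.5, for counting error only) where that share of all windows gives 43.0. The 40 windows were spread unevenly among the genes. Etl4 held 10 windows where its length gives 3.16, Macrod2 held 8 where 6.92 were expected and Lrp1b held 8 where 7.12 were expected. Auts2 held 6 windows where 3.86 were expected. The other 5 genes fell short of their length, with 3 windows at Fhit (5.596 expected), 2 at Csmd1 (5.70 expected) and 1 each at Csmd3 (4.23 expected), Immp2l (3.26 expected) and Wwox (3.20 expected). Without Etl4 the other 8 genes held 30 windows where 39.9 were expected. Without windows within 1 kb of a coding gene's end, the 9 genes held 40 where 34.1 were expected. The 3 genes on chromosome 2, Macrod2, Lrp1b and Etl4, held 26 of the 40 windows and make up 39.9% of the length of the 9. Chromosome 2 as a whole held 7.50% of all windows and 6.85% of the length.

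In hippocampus the count at the 9 genes was at the number set by length at week 3, below it at week 8 and above it at week 24. At week 3 they held 5 windows (interval 1.62 to 11.7) where 4.91 were expected, against a background of 0.0391% of all 1 kb windows called in that list. At week 8 they held 2 windows (0.242 to 7.22) where 3.56 were expected, with 0.0283% of all windows called. At week 24 they held 9 windows (4.12 to 17.1) where 4.56 were expected, with 0.0363% of all windows called. Etl4 held 3 of the 5 windows of week 3, and without it the other 8 genes held 2 where 4.55 were expected. Week 24 had windows in 6 of the 9 genes, weeks 3 and 8 in 2 genes each. Among 215 other coding genes of at least 500 kb, 29.3% had a window at week 3, 22.3% at week 8 and 24.7% at week 24. The 9 genes cover 12.6 Mb with their flanks and the 215 cover 182 Mb, so the 9 are longer on average. A longer gene is likelier to hold a window, and these shares are not matched for length. Counted against their own length, the 215 held 75 windows at week 3 where 71.1 were expected. They held 55 at week 8 where 51.5 were expected, and 66 at week 24 where 66.1 were expected. Among windows of at least 15 points the ratio of observed to expected windows at week 3 was 0.515, from 1 window, against 1.02 in the full list. Among windows with an adjusted p under 0.05 the 9 genes had 0 windows at week 8, where 1.06 were expected.

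In blood the 9 genes held 8 windows at week 3 (interval 3.45 to 15.8), where 5.53 were expected and 0.0441% of all windows were called. At week 8 they held 14 windows (7.65 to 23.5) where 21.8 were expected and 0.173% of all windows were called. At week 24 they held 2 windows (0.242 to 7.22) where 2.72 were expected and 0.0216% of all windows were called. Windows lay in 5 of the genes at week 3, in 6 at week 8 and in 2 at week 24. The other coding genes of at least 500 kb had a window in 32.1% of cases at week 3, 53.5% at week 8 and 15.8% at week 24. These shares, too, are not matched for length, and the 9 genes are longer on average. Counted against their own length, the 215 held 82 windows in blood at week 3 where 80.1 were expected. They held 188 at week 8 where 315 were expected, and 36 at week 24 where 39.3 were expected. At week 8 both sets thus held fewer windows than their length gives. The blood list at week 8 holds 1895 windows at coding gene ends, meaning within 1 kb of either end of the gene body. Of the 40 windows, 0 lay there. Ends make up little of such long bodies, so a count near 0 is no trait of the 9 genes. It also depends on the 1 kb limit. Lower blood windows of week 8 at Auts2 and Csmd1 lay 1.22 and 2.39 kb inside the upper end of the body. Without windows at such ends the ratio of observed to expected windows at week 8 was 1.07, against 0.643 in the full list. Among windows of at least 15 points it was 1.43 at week 8, from 4 windows. The same cut gave 1.84 at week 24, from 2 windows. Among windows with an adjusted p under 0.05 the ratio was 0.364 at week 3 (1 window) against 1.45 in the full list, and 2.0 at week 24 (2 windows) against 0.736.

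**Figure D1:**
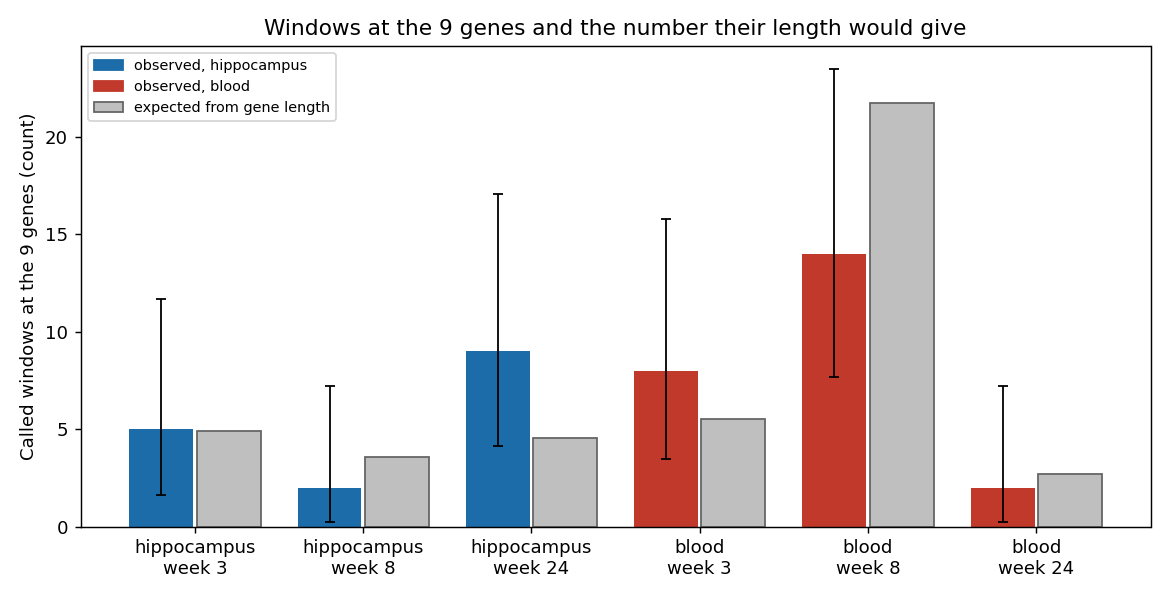
Called 1 kb windows at the 9 genes (coloured bars, with exact 95% Poisson intervals for counting error) beside the number their length would give (grey bars), for the 6 lists of App-NLGF against wild type. The largest count is 14 in blood at week 8, which is below the 21.8 expected, and the count of 9 in hippocampus at week 24 stands above the 4.56 expected.

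Etl4 had the highest density of windows of the 224 coding genes of at least 500 kb, at 10.9 windows per Mb over the 6 lists. After it came the ephrin receptor gene Epha6 at 8.08, the protocadherin gene Pcdh11x at 7.80 and Stpg2 at 7.60 windows per Mb. The median of the 215 other long genes was 2.66 windows per Mb, and 28 of them had 0 windows. Auts2 ranked 27th at 5.32 windows per Mb, Macrod2 56th at 3.96 and Lrp1b 58th at 3.85. Fhit ranked 138th at 1.84, Csmd1 176th at 1.20, Wwox 183rd at 1.07, Immp2l 185th at 1.05 and Csmd3 194th at 0.811 windows per Mb. Thus 1 of the 9 stood first, and 5 of the 9 lay below the median density of the other long genes. The 9 were chosen with their windows in these lists known, so their ranks, here and in parts of the lists, carry no test. By length Etl4 ranked 77th of the 224. Since the blood list at week 8 holds 4525 of the 8952 windows on the autosomes and X, the ranks were also taken within parts of the lists. Etl4 ranked 2nd in the 3 hippocampal lists and 3rd in the 3 blood lists, at 5.43 windows per Mb in both, and 1st at 7.60 in the 5 lists without blood at week 8. Without that list Auts2 ranked 14th and Macrod2 33rd, and Lrp1b, with 5 of its 8 windows there, ranked 129th. Within single lists Etl4 ranked between 2nd and 15th in the 4 that hold its windows. The 215 other long genes together held 502 windows where their length gives 623. In hippocampus the 9 genes held 16 windows where 13.0 were expected, and the other 215 held 196 where 189 were expected. Without Etl4 the 8 genes held 11 in hippocampus where 12.1 were expected, so the side on which they lay turned with this gene. In blood the 9 genes held 24 where 30.0 were expected, and the other 215 held 306 where 434 were expected. Without windows at gene ends the 9 genes held 24 in blood where 21.3 were expected, on the other side of the expected number. Both expected numbers, 30.0 and 21.3, lie within the counting interval of these 24 windows, 15.4 to 35.7. The 215 other genes were not recounted without gene ends, so the 2 sets cannot be compared on that setting.

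**Figure D2:**
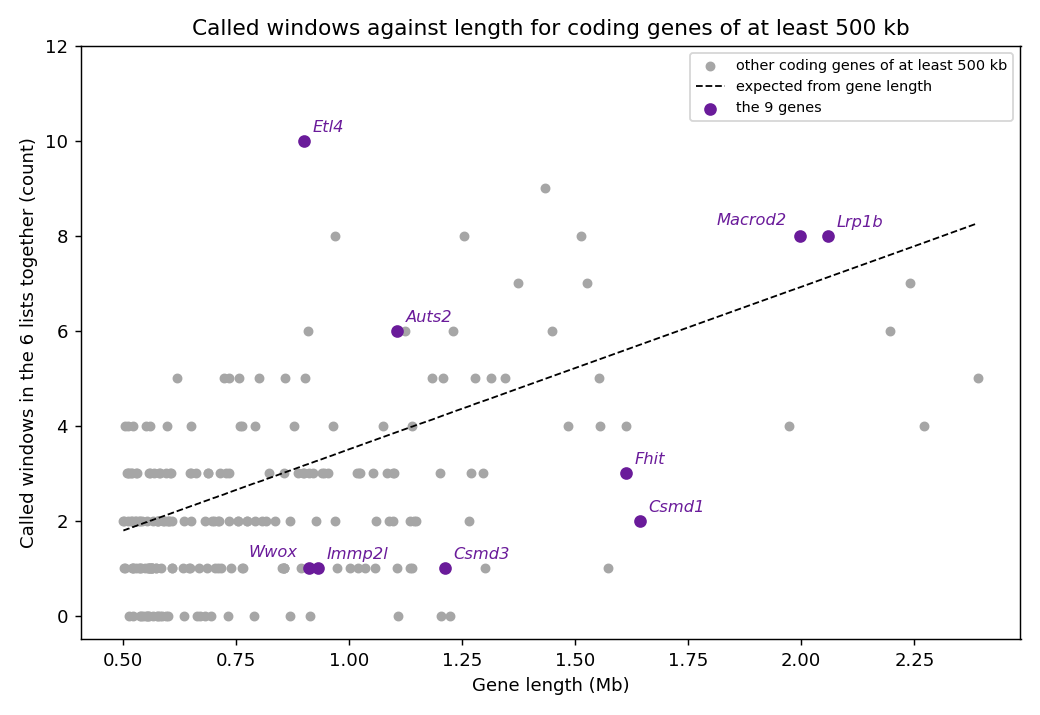
Called windows in the 6 lists together against gene length in Mb, for the 9 genes (purple, named) and 215 other coding genes of at least 500 kb (grey), with the number expected from length as a dashed line. Etl4 with 10 windows at 0.90 Mb lies farthest above the line, and Csmd3, Csmd1, Wwox, Immp2l and Fhit lie below it.

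The enzymes come first. Macrod2 encodes a macrodomain hydrolase that removes ADP-ribose from proteins, and its human counterpart is a frequent site of deletions. Its body, chr2:140395303-142392966 on the plus strand, held 3 windows that were higher and 5 that were lower in App-NLGF, 4 in each tissue. In hippocampus at week 24 the authors' deposited table lists 15.2 points at chr2:140733001-140734000 and 14.9 points at chr2:140790001-140791000, 56.0 kb apart, and -16.3 points at chr2:142055001-142056000 in the far part of the gene. The hippocampal window of week 8, between these in position, stood at -11.5 points in the authors' deposited table (chr2:140944001-140945000). So hippocampal windows of both signs lay in the gene at week 24. In blood at week 3 both windows were lower, at -18.8 points (chr2:140718001-140719000) and -12.8 points (chr2:141722001-141723000) in the authors' deposited table. The first of these lies 14 kb from the higher hippocampal window of week 24. Blood at week 24 had the largest absolute difference of all 40 windows, which the authors' deposited table gives as -23.7 points at chr2:141399001-141400000 (adjusted p = 0.0250). Blood at week 8 had 11.9 points at chr2:141649001-141650000 in the authors' deposited table. The nearest of the 8 windows lay 322.5 kb from the annotated start of Macrod2.

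Fhit encodes a hydrolase of diadenosine triphosphate and a tumour suppressor, and lies at a fragile site in both human and mouse. Its body is chr14:9550092-11162061 on the minus strand. In blood at week 8 a lower and a higher window lay 19.0 kb apart, at -15.0 points (chr14:10526001-10527000) and 15.2 points (chr14:10546001-10547000) in the authors' deposited table. Hippocampus at week 8 had 16.0 points at chr14:10765001-10766000 in the authors' deposited table, a window that also lies inside Fhitos, a long noncoding RNA gene. All 3 windows therefore came from week 8, where its length gives 0.463 in hippocampus and 2.83 in blood. The gene had none at weeks 3 and 24. There its length gives only 0.639 and 0.593 in hippocampus and 0.720 and 0.353 in blood, so no particular age is read from this.

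Wwox encodes a WW domain oxidoreductase and tumour suppressor, is the site of another human fragile region and lies at a human Alzheimer risk locus. Its 1 window was in hippocampus at week 24, at -13.4 points (chr8:114905001-114906000, adjusted p = 0.0653) in the authors' deposited table. It lay near the middle of the gene body, chr8:114439635-115352712. Immp2l encodes a subunit of the peptidase that cleaves proteins in the inner mitochondrial membrane. Its 1 window was in blood at week 3, at -11.8 points (chr12:41545001-41546000, adjusted p = 0.0480) in the authors' deposited table, near the middle of chr12:41024061-41955588. Both genes thus had a single, lower window, each in a different tissue.

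Lrp1b, Csmd1 and Csmd3 encode very large membrane proteins. Lrp1b is an endocytic receptor of the LDL receptor family that binds amyloid precursor protein in cultured cells. Of its 8 windows 7 were in blood (4.97 expected) and 1 in hippocampus (2.16 expected). The 5 blood windows of week 8 split by position in the body, chr2:40595290-42653598. At lower coordinates the authors' deposited table gives 17.6 points (chr2:41002001-41003000), 10.7 points (chr2:41226001-41227000) and 23.6 points (chr2:41793001-41794000). At higher coordinates the authors' deposited table gives -14.0 points (chr2:42187001-42188000, adjusted p = 0.00192) and -10.6 points (chr2:42620001-42621000). Blood at week 3 had a higher window in the lower-coordinate part, 15.3 points at chr2:40940001-40941000, and a lower one in the upper part, -16.1 points at chr2:42304001-42305000, in the authors' deposited table. The 4 higher blood windows of both ages thus lay at lower coordinates than the 3 lower ones, a pattern noticed in these values and not tested. The hippocampal window, at week 24, stood at 13.5 points in the authors' deposited table and lay among the lower blood windows (chr2:42522001-42523000).

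Csmd1 encodes a transmembrane protein of CUB and Sushi domains that restrains complement. Both its windows were in blood at week 8. In the authors' deposited table chr8:17532001-17533000 stood at -14.6 points (adjusted p = 0.000992), the smallest adjusted p of the 40 windows. This window ends 2.39 kb inside the upper end of the gene body, chr8:15892538-17535385. The other stood at 11.6 points in the authors' deposited table (chr8:16601001-16602000), 930 kb away. Csmd3, a related gene, had 1 window, in hippocampus at week 24, at 13.4 points (chr15:48369001-48370000, adjusted p = 0.0933) in the authors' deposited table. Its body is chr15:47580638-48792558.

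**Figure D3:**
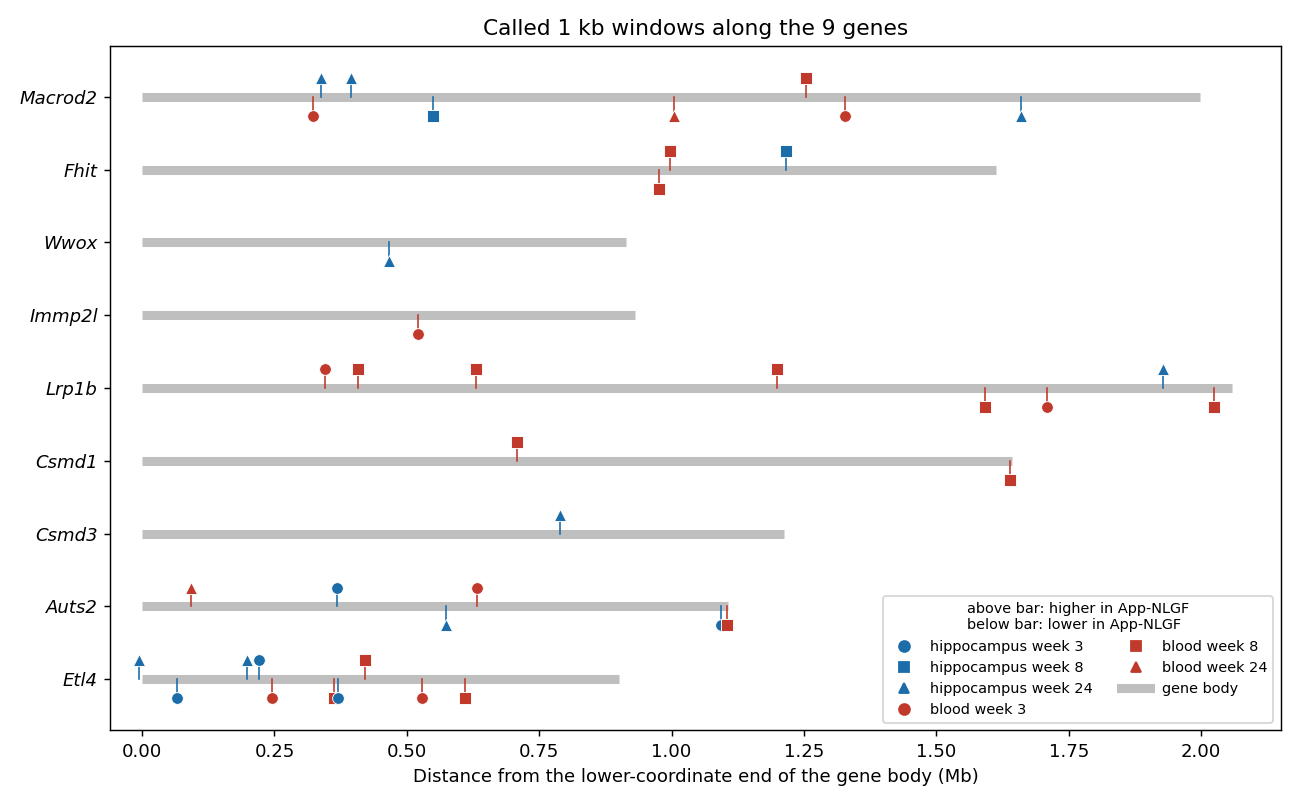
Positions of the 40 called windows as distance in Mb from the lower-coordinate end of each gene body (grey bar), above the bar where higher and below it where lower in App-NLGF, with colour for tissue and marker shape for week. Lrp1b has its 4 higher blood windows left of its 3 lower ones, and Etl4 has the most windows, 10 for a body of 0.90 Mb.

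Auts2 and Etl4 act in development. Auts2 encodes a nuclear protein that works with a Polycomb complex in neurons and is linked to human neurodevelopmental disorders. Its 6 windows came from 5 of the 6 lists, with 3 higher and 3 lower. In hippocampus the authors' deposited table gives 11.3 points (chr5:131805001-131806000) and -12.8 points (chr5:132530001-132531000) at week 3. At week 24 the authors' deposited table gives -17.0 points at chr5:132011001-132012000 (adjusted p = 0.00928). In blood the windows were 10.6 points at week 3 (chr5:132070001-132071000), -13.4 points at week 8 (chr5:132541001-132542000, adjusted p = 0.00199) and 15.2 points at week 24 (chr5:131529001-131530000) in the authors' deposited table. The lower windows of hippocampus at week 3 and blood at week 8 lay 10 kb apart at the upper end of the body, chr5:131437333-132543220. The blood window ends 1.22 kb inside that end. Strand was not given for Auts2 or Csmd1 in the tables used, so these ends are not named as start or end of transcription.

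Etl4, also called Skt, is required for normal intervertebral discs in the mouse and held more windows than any other of the 9. They came from 4 lists, with 2 or 3 in each. Its body is chr2:19910207-20810535 on the plus strand. Hippocampus held 5 windows (0.956 expected) and blood 5 (2.20 expected). In hippocampus at week 3 the authors' deposited table gives -17.5 points (chr2:19975001-19976000), 13.1 points (chr2:20131001-20132000, adjusted p = 0.00649) and -11.4 points (chr2:20279001-20280000). At week 24 both hippocampal windows were higher, at 16.8 points (chr2:19904001-19905000, adjusted p = 0.00246) and 14.0 points (chr2:20108001-20109000) in the authors' deposited table. The second of these lies 22.0 kb from the higher window of week 3. Blood windows were lower at week 3, at -13.0 points (chr2:20156001-20157000) and -20.3 points (chr2:20438001-20439000) in the authors' deposited table. At week 8 the authors' deposited table gives -12.5 points (chr2:20272001-20273000), 13.0 points (chr2:20330001-20331000) and -10.6 points (chr2:20519001-20520000) in blood. The first of these lies 6 kb from the lower hippocampal window of week 3, and the second overlaps the noncoding RNA gene Gm17171. The hippocampal window of 16.8 points lies 5.21 kb before the gene body and is the one window of the 40 outside a body. The nearest window beyond the 10 kb limit was 13.5 kb past the upper end of Etl4, at -17.5 points in hippocampus at week 3 (chr2:20824001-20825000) in the authors' deposited table.

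RefSeq start regions of GRCm38.p6, which has the coordinates of mm10 here, were found for 4 of the 9 genes, Macrod2, Fhit, Immp2l and Etl4, 8 regions in all. Each is 300 bases, from 250 before to 50 after an annotated start. Of these, 1 overlapped a called window. It is the start of Etl4 at chr2:20519263-20519562, inside the blood window of -10.6 points at week 8 in the authors' deposited table. It is printed beside the 2 other Etl4 starts found, both also inside the gene body. That at chr2:20509797-20510096 lies 8.90 kb from this blood window. That at chr2:20289663-20289962 lies 9.66 kb from the hippocampal window of -11.4 points at week 3 in the authors' deposited table. No start region was found at the lower end of the Etl4 body, chr2:19910207. The hippocampal window of 16.8 points at week 24 in the authors' deposited table lies 5.21 kb before that end. A start of Macrod2, at chr2:140395180-140395479, is printed as the contrast with no window near it. All are on the plus strand, written 5′ to 3′, with the CG dinucleotides, the sites at which this methylation occurs, in capitals.

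Etl4 start inside the window: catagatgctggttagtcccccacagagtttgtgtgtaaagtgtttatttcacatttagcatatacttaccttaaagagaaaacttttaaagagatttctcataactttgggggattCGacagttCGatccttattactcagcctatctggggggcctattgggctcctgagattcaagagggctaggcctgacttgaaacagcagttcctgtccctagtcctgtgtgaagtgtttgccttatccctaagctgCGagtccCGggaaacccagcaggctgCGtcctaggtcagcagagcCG
Etl4 start 8.90 kb from the window: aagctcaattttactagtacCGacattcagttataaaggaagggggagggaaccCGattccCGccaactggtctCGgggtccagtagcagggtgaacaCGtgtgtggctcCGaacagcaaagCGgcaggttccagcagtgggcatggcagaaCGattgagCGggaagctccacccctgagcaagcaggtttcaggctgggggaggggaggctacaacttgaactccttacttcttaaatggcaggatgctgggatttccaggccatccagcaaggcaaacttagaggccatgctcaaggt
Etl4 start 9.66 kb from a window: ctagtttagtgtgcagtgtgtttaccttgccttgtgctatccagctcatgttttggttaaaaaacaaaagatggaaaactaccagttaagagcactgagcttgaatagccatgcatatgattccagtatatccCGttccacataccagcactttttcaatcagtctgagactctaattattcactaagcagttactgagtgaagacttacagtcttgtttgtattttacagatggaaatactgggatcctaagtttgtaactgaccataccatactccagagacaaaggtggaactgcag
Macrod2 start 323 kb from a window: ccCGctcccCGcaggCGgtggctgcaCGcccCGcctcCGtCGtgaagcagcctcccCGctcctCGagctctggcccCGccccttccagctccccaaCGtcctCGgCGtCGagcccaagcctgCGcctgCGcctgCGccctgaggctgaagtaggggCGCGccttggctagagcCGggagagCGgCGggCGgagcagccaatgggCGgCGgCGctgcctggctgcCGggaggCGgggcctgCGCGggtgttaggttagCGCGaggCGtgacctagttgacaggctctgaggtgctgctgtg

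The Etl4 start inside the window has 6 CG dinucleotides, more than 43.6% of the 32851 RefSeq start regions, whose median is 7. The 2 other Etl4 starts found have 9 and 1. The Macrod2 start has 33, more than 91.4% of start regions. CG was searched as the letters CG, which read the same on both strands, and 94.6% of start regions hold it at least once. The start under the called window is thus not among the CG-rich ones, and these letters say nothing about the methylation level there.

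Higher and lower windows were nearly balanced over the 9 genes, with 19 higher and 21 lower (47.5% higher, exact interval 31.5 to 63.9), where 33.0% of all windows were higher. At week 3 in hippocampus 2 of 5 windows were higher, where 29.5% of the list was, with 0.0116% of all windows called as higher and 0.0276% as lower. At week 8 in hippocampus 1 of 2 was higher, where 54.5% of the list was, with 0.0154% called as higher and 0.0129% as lower. At week 24 in hippocampus 6 of 9 were higher, where 58.6% of the list was, with 0.0213% called as higher and 0.0150% as lower. These shares lie on the same side of an equal split as the list at weeks 3 and 24.

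In blood the share of higher windows at the 9 genes was below that of the list at weeks 3 and 24 and above it at week 8, from 8, 2 and 14 windows. At week 3, 2 of 8 windows were higher (25%, exact interval 3.19 to 65.1), where 63.2% of the list was, with 0.0279% of all windows called as higher and 0.0162% as lower. At week 8, 7 of 14 were higher (50%, 23.0 to 77.0), where 11.1% of the list was, with 0.0192% called as higher and 0.154% as lower. At week 24, 1 of 2 was higher (50%, 1.26 to 98.7), where 82.5% of the list was, with 0.0178% called as higher and 0.00379% as lower. The 215 other long genes had 64.6% higher at week 3, 20.2% at week 8 and 91.7% at week 24 in blood. At week 8 the other long genes too had a larger share of higher windows than the list. The sizes were moderate. The 40 windows ranged from 10.6 to 23.7 points in absolute value with a median of 13.7, against 12.6 over all windows. By list the median of the 9 genes was smaller than that of the list at week 3, at 12.8 against 13.8 points in hippocampus and 14.1 against 14.9 in blood. It was larger in the other 4 lists, with 13.2 against 11.7 points in blood at week 8. Only 3 of the 40, at Macrod2, Lrp1b and Etl4, reached 20 points. The adjusted p was under 0.05 in 19 of 40 (47.5%), against 56.0% of all windows. These 2 shares are not matched by list. Blood at week 8 gave 14 of the 40 windows, but 4525 of the 8952 on the autosomes and X. The adjusted p came nearest to the list limit of 0.1 at Lrp1b, at 0.0974 in the authors' deposited table (10.7 points).

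**Figure D4:**
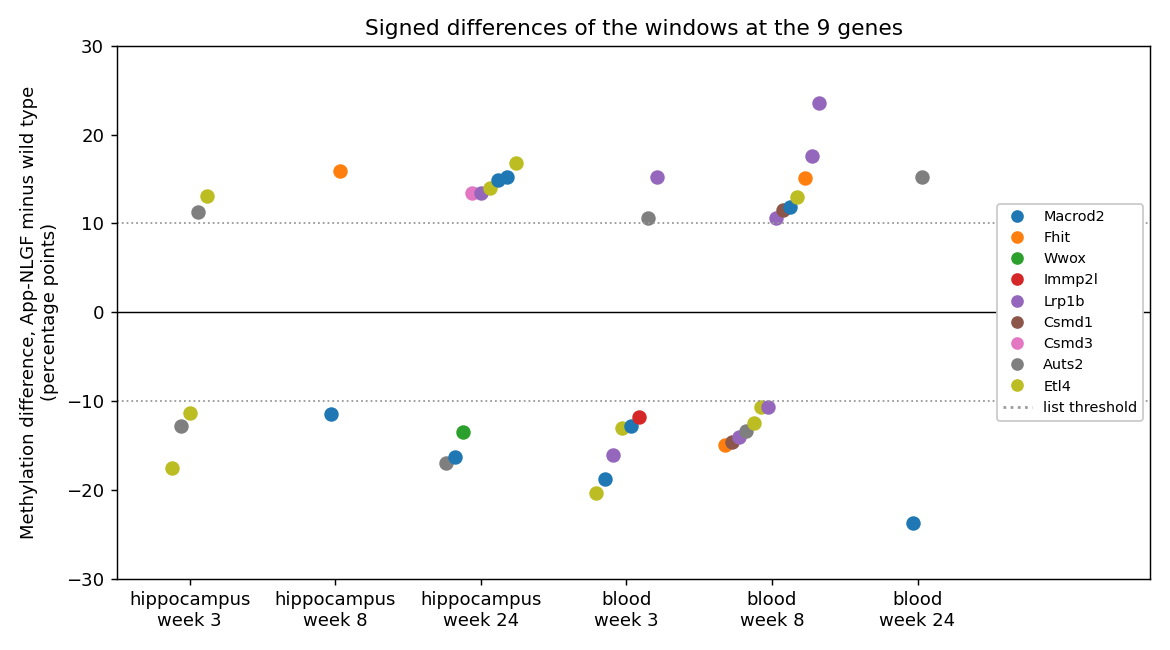
Methylation difference of each of the 40 windows in percentage points, App-NLGF minus wild type, by list and coloured by gene, with the list's limit of 10 points dotted. Blood at week 8 has 7 windows above and 7 below 0, and blood at week 3 has 2 above and 6 below.

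The 40 windows had 40 distinct positions, so no position came from more than 1 list. Each list calls 0.0216% to 0.173% of all windows. How often positions recur between lists over all called windows was not counted, so this is not read as a trait of these genes. In 12 of the 40 windows the nearest other window of the same gene lay within 50 kb. Several of these are in Etl4, which has 10 windows for a body of 0.90 Mb. The number that density alone would give was not computed, nor the count for other genes, so no clustering is read from it. The 39 windows inside gene bodies were spread along them, with 13 in the lower, 16 in the middle and 10 in the upper of 3 equal parts by coordinate.

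Paralogs and other genes at fragile sites were read in the same way. Of the 7 paralogs Macrod1, Fbrsl1, Immp1l, Csmd2, Lrp1, Lrp2 and Srcin1, 3 had a window, 5 windows in all where 4.55 were expected, 2 higher and 3 lower. In hippocampus 2 of the 7 had a higher window and 0 a lower one, and in blood 0 had a higher window and 2 a lower one. These are 2 and 3 windows, where 46.5% of all hippocampal and 27.2% of all blood windows were higher. Lrp1, the receptor that clears amyloid-beta, had 14.4 points in hippocampus at week 24 (chr10:127600001-127601000) in the authors' deposited table. Csmd2 had 13.5 points in hippocampus at week 8 (chr4:128439001-128440000) and, in blood, -12.1 points at week 3 and -11.4 points at week 8 in the authors' deposited table. Of the 11 other fragile-site genes Dmd, Ctnna3, Dlg2, Il1rapl1, Dab1, Rora, Dpyd, Nbea, Cntnap2, Naaladl2 and Gphn, 8 had a window. They held 37 windows where 51.0 were expected, 13 higher and 24 lower. In hippocampus they held 16 windows where 15.4 were expected, with a higher window in 3 genes and a lower one in 7, and 37.5% of these windows were higher, against 46.5% of all hippocampal windows. In blood they held 21 where 35.6 were expected, with a higher window in 4 genes and a lower one in 7, and 33.3% of these windows were higher, against 27.2% of all blood windows. Dpyd, Nbea and Gphn had 0 windows. The largest hippocampal differences of the 11 in the authors' deposited table fell at week 3, 24.1 points at the adhesion gene Cntnap2 and -19.7 points at Naaladl2. In blood, the authors' deposited table has -21.4 points at Il1rapl1 at week 3 as the largest, then -20.9 points at the dystrophin gene Dmd at week 8, both on X.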

How the data were processed

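Per the labels' protocols, DNA of hippocampus and blood was extracted with different kits, sheared and treated with bisulfite (EZ DNA Methylation-Gold). Bismark and methylKit, after Trim Galore and FastQC, are named with mm10 per the submitters' processing notes; neither settings nor a coverage filter is given in the sources used here. The authors' deposited p-value and adjusted p-value belong to windows of 1 kb. The deposited difference is a signed score in percentage points. In the list as read, adjusted p stays under 0.1 and absolute differences reach at least 10 points. Columns of values per library numbered 0, so depth is unknown.

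Gene bodies came from the RefSeq table of GRCm38.p6, whose coordinates equal mm10 on the chromosomes used. A window was assigned to each gene it overlapped or lay within 10 kb of. The expected number is the list's count times the share of 1 kb grid windows at the gene, which assumes even coverage. The grid ran from the first to the last annotated gene or window of each autosome and X. The 9 windows on other sequences were left out. Percent called is called windows over grid windows. Intervals are exact at 95%, Poisson for counts and Clopper-Pearson for shares, cover counting error only and treat windows as independent. Counting was tested on simulated windows. Members, lists and alternatives were chosen with earlier results of these data known. All windows of the 9 genes are given. Some genes of the planned fragile-site list are not reported here, so its counts are over the genes named and not over the planned list. Paralogs and fragile-site genes are given by counts, with the 2 largest windows per tissue, and other coding genes of at least 500 kb, without those of predicted Gm symbols, by density, with the 3 densest named. Alternatives used gene bodies alone, an adjusted p under 0.05, at least 15 points, windows within 10 kb merged, the rate of the own chromosome, or a list without windows at gene ends, and a number of tests recovered from the adjusted p. Python 3.11.15, pandas 2.3.3 and scipy 1.17.1 were used.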

Additional observations from a re-analysis of the deposited data

How the results depend on the processing

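Of 104 recomputed values 90 stayed within the counting interval of the value reported. For the 9 genes in a single list these intervals come from 2 to 14 windows and are wide. Most recomputed values use the same windows or part of them, so staying within the interval says little about robustness. Among the 14 outside it are the percents of windows called, which were divided by 2303865 to 2330524 recovered tests in place of 2612262 grid windows. The cause of the rest was not tested, beyond the smaller lists that a stricter limit leaves. Among windows of at least 15 points, the ratio of observed to expected windows became 1.43 in blood at week 8, 1.36 over all 6 lists and 1.51 over the 3 blood lists, against 0.643, 0.929 and 0.800. With an adjusted p under 0.05 it became 0 in hippocampus at week 8 and 0.364 in blood at week 3. The share of higher windows became 0% in hippocampus at week 3 and 100% at week 8 among windows of at least 15 points, and 0% in blood at week 3 with an adjusted p under 0.05, each from 1 window. No share could be had for hippocampus at week 8 with an adjusted p under 0.05. With the number of tests recovered from the adjusted p, the percent of windows called was 0.0440, 0.0318 and 0.0408 in hippocampus at weeks 3, 8 and 24 and 0.0495, 0.196 and 0.0244 in blood. This rests on the Benjamini-Hochberg method, under which 41.3% to 68.1% of ranks came out whole within 0.02. Pooled lists and the settings without Etl4, Macrod2 or Lrp1b were added after the data were seen. Without Etl4 the ratio over all 6 lists was 0.752, without Macrod2 0.886 and without Lrp1b 0.891. Some values within the interval still crossed the expected number or moved by over 1.5 times. Without Etl4 the ratio was 0.911 over the hippocampal lists, against 1.23, and 0.439 in hippocampus at week 3, against 1.02. Without windows at gene ends it was 1.17 over all 6 lists, against 0.929, and 1.13 over the blood lists, against 0.800. Without Macrod2 it was 0.335 in hippocampus at week 8, against 0.562, and 0.439 in blood at week 24, against 0.736. No paired analysis was possible because the deposited list holds no values per library, and for the same reason no library could be left out.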
